A study of Mus musculus with 2 samples.

Results

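The 4 Hox clusters were examined in DNase-seq data of mouse frontal cortex, a forebrain tissue. The members were the 39 protein-coding genes of GENCODE M21 named Hoxa, Hoxb, Hoxc or Hoxd with a number, out of 21938 protein-coding genes. Hoxa held 11 of them, Hoxb 10, Hoxc 9 and Hoxd 9. DNase-seq maps open chromatin through the places where the enzyme DNase I cuts DNA in nuclei. The data were 2 libraries, replicates 1 and 2, prepared from the frontal cortex of male mice of the first-generation hybrid strain B6CASTF1/J, aged 14 days, with no treatment in the labels. Each was labelled as tissue of 3 males. The tissue samples were numbered separately, but both carry a single donor number, so the spread between the libraries may be partly technical. They formed 1 group with no other group to compare it with, so no test was made. Values are given for each library or as mean ± SD (n = 2), and the same measure over all genes or all regions is given as the background.

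Hox genes encode homeodomain transcription factors that give cells along the head-to-tail axis their regional identity. Within a cluster the genes lie broadly in the order of their expression domains. Low-numbered paralog groups are in general expressed farther towards the head and high-numbered groups farther towards the tail. The domains begin in the hindbrain, and the forebrain develops without them. Where they are silent, Polycomb complexes, which modify histones and compact chromatin, are known to cover the clusters, and the insulator protein CTCF is known to bind at several places within them.

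Of 39 Hox genes, 2 had a peak at the promoter in both libraries, Hoxa4 and Hoxa7, against 59.7% of all protein-coding genes. A promoter here reaches 1000 bp to either side of every annotated transcription start. A further 5 genes had a promoter peak in 1 library alone, which made 7 genes with a peak in either library against 63.8% of all genes, and 32 had none in either library, against 36.2% of all genes with none. The clusters were nevertheless not free of peaks: they held 9 regions called in both libraries, and only 1 of them lay within 1000 bp of a Hox start. In each cluster 1 of these shared regions lay beyond the gene of paralog group 9 in the direction of transcription. In Hoxb, Hoxc and Hoxd it lay between this gene and its next neighbour, Hoxb8, Hoxc8 or Hoxd8. In Hoxa it overlapped the start of the next neighbour, Hoxa7, and is the promoter peak of that gene.

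The sequences of these 4 positions are shown because each cluster had a shared region there. The position was not set in advance, and how often so few regions would share a position was not counted. The most similar stretch of 30 bases, without gaps, was searched on both strands of the 4 regions, so the stretch was chosen for its likeness. All 4 lay in the orientation of the Hox genes. The sequences are from the GRCm38.p6 reference (the mm10 coordinates), 5′ to 3′ in the direction of Hox transcription. Capitals mark bases that at least 3 of the 4 share.
Hoxa9/Hoxa7 site: AAaattCCaggAGATGGCagTGTgGCTCCA
Hoxb9/Hoxb8 site: cAgTGgCCgCtAGATGGCatccTTGCTCCA
Hoxc9/Hoxc8 site: AAgTGaaCgCgAGgTGGCgcTGTTGCTCaA
Hoxd9/Hoxd8 site: AttTGgCCaCtAGAgaGCgcTGTTGCTCCA
The Hoxa site is chr6:52221797-52221826 on the minus strand, in the untranslated region of Hoxa7 at its start. The Hoxb site is chr11:96278942-96278971, between genes. The Hoxc site is chr15:102987587-102987616, in an intron of the long Hoxc5 transcript. The Hoxd site is chr2:74702389-74702418, between genes. The same base stood in 11 of 30 columns in all 4 sites and in 24 columns in at least 3.

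The Hoxb, Hoxc and Hoxd sites were identical at 20 of 30 bases in each pair, and the Hoxa site shared 18 of 30 with each of them. The same search in the other 53655 shared regions of the genome found a median of 15 identical bases with each site. Because the stretch was chosen for its likeness among these 4 regions and not among the others, this median is no fair measure of how unusual the likeness is. Even so, 5.79% of the other regions shared at least 18 bases with the Hoxa site. At least 20 bases were shared with the Hoxb site by 0.649% of them, with the Hoxc site by 0.417% and with the Hoxd site by 0.891%. The choice of the stretch limits these shares in the same way. Part of the stretch resembles the 12-letter core of the CTCF motif: the best match within it had 1 mismatch in the Hoxa, Hoxb and Hoxd sites and 3 in the Hoxc site. Whether CTCF was bound there was not measured.

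The likeness was not limited to the position beside group 9. Of the 5 other shared regions in the clusters, the one beside Hoxa13 held a stretch identical to the Hoxc site at 22 of 30 bases, more than any of the 4 sites shared with another. It ran opposite to the direction of the Hox genes. This stretch, chosen after its values were seen, is chr6:52257115-52257144 on the plus strand, with capitals where it equals the Hoxc site.
Hoxa13 side: ttGTcAACaCGAGGTGGCGCccTTGaTCtA
Footprints, the short protected intervals that the authors called inside open DNA, covered 21 of its bases in replicate 1 and 17 in replicate 2. The Hoxd3 and Hoxd4 region shared 19 bases with both the Hoxc and the Hoxd site. The most that any of the 5 other regions shared was 17 bases with the Hoxa site, 18 with the Hoxb site and 19 with the Hoxd site. Each of these is the best of 5 regions. Over the genome, 6.71% of the other shared regions had at least 18 bases in common with the Hoxb site. How many reach 22 with the Hoxc site was not counted.

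Footprints also lay on the 4 sites. They covered 15 of 30 bases of the Hoxa site in replicate 1 and 16 in replicate 2. They covered 28 and 24 bases of the Hoxb site, and 24 and 29 bases of the Hoxc site. On the Hoxd site the libraries differed, with 0 bases in replicate 1 and 25 in replicate 2. The per-base false discovery rate of the cut rate, which the authors deposited for bases below 0.05, was lowest around the first 3 sites. Within 200 bp of the middle it fell to 4.49e-11 and 2.66e-09 at the Hoxa site, 4.72e-12 and 5.84e-08 at the Hoxb site, and 2.71e-12 and 2.29e-10 at the Hoxc site, in replicates 1 and 2. At the Hoxd site it reached 1.81e-06 and 7.56e-05.

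**Figure D1:**
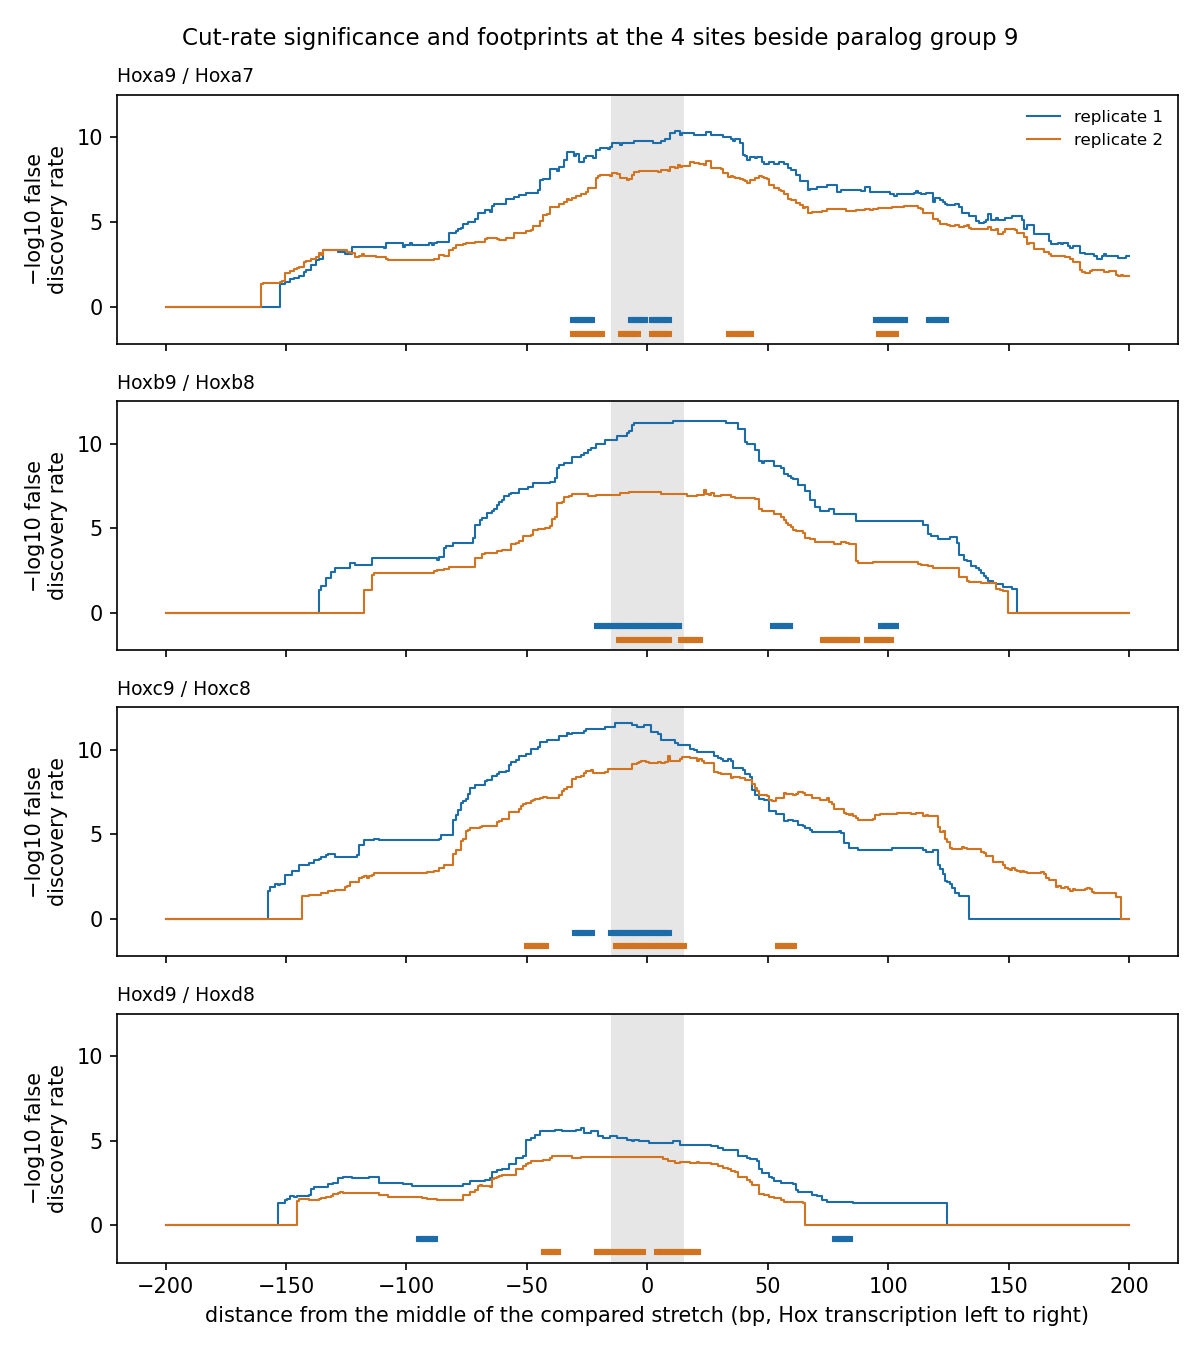
Significance of the cut rate (−log10 of the authors' false discovery rate, vertical axis) by distance from the middle of the compared stretch (horizontal axis, bp, Hox transcription left to right), for the 4 sites and both libraries; bases not listed below 0.05 are drawn at 0, the grey band is the 30-base stretch, and the marks under each curve are footprint bases. The curves are raised across the band in all 4 panels but peak lower in the Hoxd panel than in the others. Only the Hoxd panel has no footprint of replicate 1 in the band.

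The heights that follow are the authors' signal values, each library having its own scale, which the sources do not state. A mean or SD of heights over both libraries may therefore hold a difference of scale as well as spread. The genome's median peak height was 0.848 in replicate 1 and 0.801 in replicate 2. At the Hoxa9/Hoxa7 position, chr6:52221661-52221920, the height was 1.31 in replicate 1 and 1.33 in replicate 2. At Hoxb9/Hoxb8, chr11:96278861-96279060, it was 1.47 and 1.27. At Hoxc9/Hoxc8, chr15:102987481-102987720, it was 1.46 and 1.28. These were the tallest shared regions of their clusters, though Hoxc held only this 1. They were the only 3 of the 9 above the genome's median mean height of 1.04, which by definition 50% of all shared regions exceed. At Hoxd9/Hoxd8, chr2:74702281-74702520, the height was 0.920 and 1.04. Its mean of 0.981 ± 0.0870 (SD, n = 2) and that of the other Hoxd region, 0.982 ± 0.0381, did not differ beyond the spread.

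The whole regions of Hoxb, Hoxc and Hoxd are given next, so that the stretches can be seen in place. They are read in the direction of the Hox genes, with capitals where the footprints of both libraries overlap. The Hoxa region is left out because it lies in an untranslated region.
Hoxb9/Hoxb8 region: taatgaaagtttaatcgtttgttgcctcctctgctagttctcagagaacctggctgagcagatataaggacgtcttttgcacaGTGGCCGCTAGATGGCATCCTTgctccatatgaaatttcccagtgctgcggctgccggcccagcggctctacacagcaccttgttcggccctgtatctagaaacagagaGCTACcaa
Hoxc9/Hoxc8 region: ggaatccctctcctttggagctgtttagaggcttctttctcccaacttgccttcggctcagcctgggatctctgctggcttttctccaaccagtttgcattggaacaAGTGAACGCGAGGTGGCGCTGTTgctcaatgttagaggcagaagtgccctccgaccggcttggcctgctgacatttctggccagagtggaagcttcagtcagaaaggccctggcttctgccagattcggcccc
Hoxd9/Hoxd8 region: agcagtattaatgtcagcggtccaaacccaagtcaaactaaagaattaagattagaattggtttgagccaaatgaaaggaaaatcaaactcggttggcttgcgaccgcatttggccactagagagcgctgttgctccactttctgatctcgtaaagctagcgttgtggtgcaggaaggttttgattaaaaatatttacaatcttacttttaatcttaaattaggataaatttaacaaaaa
In the Hoxb and Hoxc regions the capitals fall on the compared stretch, with a second short run near the end of the Hoxb region. In the Hoxd region no base was in a footprint of both libraries.

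The other 5 shared regions had mean heights below those of the 3 tall ones. Beside Hoxa13, chr6:52257041-52257220 lay in an exon of the noncoding transcript 9530018H14Rik, 3582 bp from the nearest Hoxa13 start, with heights of 1.05 and 0.801. In an intron of Hoxa3 and of the antisense transcript Hoxaas3, chr6:52211661-52211897 had 0.776 and 0.550, and it held footprints in replicate 1 alone. In an intron of Hoxb6 and Hoxb5os, chr11:96294651-96294776 had 0.418 and 0.534, the lowest of the 9, with a footprint in replicate 2 alone. Just upstream of Hoxb5, 1156 bp from its start, chr11:96301881-96302180 had 0.776 and 0.817. The second Hoxd region, chr2:74715821-74716120, in an intron of Hoxd3 and Hoxd4 and an exon of Hoxd3os1, had 0.955 and 1.01. Over the 9 regions, 7 held a footprint in both libraries, which is 77% over all shared regions of the genome.

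The region beside Hoxa13 is shown because it holds the stretch most like the Hoxc site. It is written in the direction of Hoxa13, with capitals where the footprints of both libraries overlap.
Hoxa13 side region: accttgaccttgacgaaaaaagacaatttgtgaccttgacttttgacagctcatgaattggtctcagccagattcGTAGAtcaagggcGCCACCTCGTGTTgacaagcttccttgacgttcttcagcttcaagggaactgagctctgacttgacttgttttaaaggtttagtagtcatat
The longer run of capitals is the part that, on the other strand, resembles the Hoxc site.

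**Figure D2:**
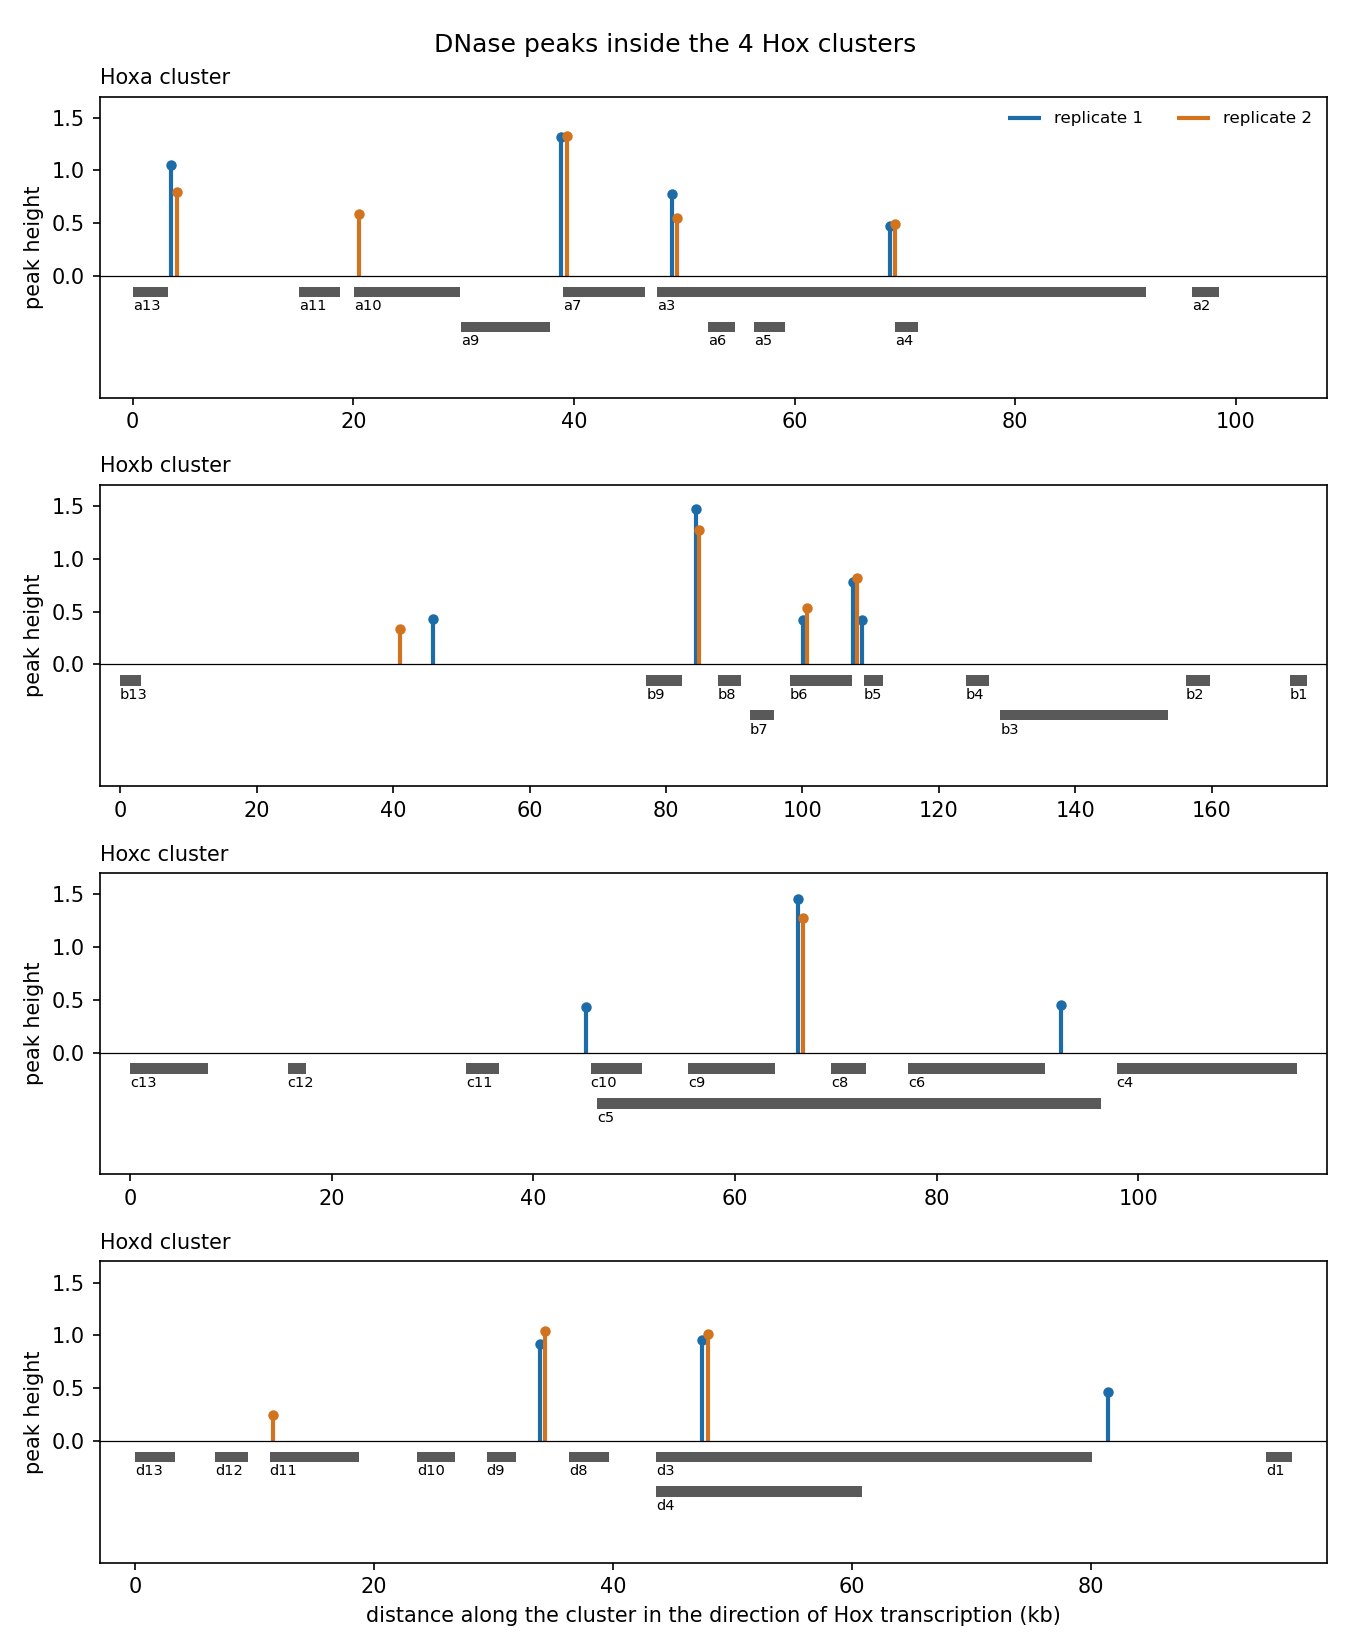
Peaks along the 4 clusters by distance in the direction of Hox transcription (horizontal axis, kb), with the authors' peak height for replicates 1 and 2 (vertical axis) and the annotated extent of the Hox genes shown as a grey bar named without its prefix. A pair of peaks stands between group 9 and the next gene in the Hoxb, Hoxc and Hoxd panels and over the start of Hoxa7 in the Hoxa panel, and at Hoxa4 the pair consists of neighbouring peaks that do not overlap.

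At the promoters themselves, Hoxa7 had the tallest signal of any Hox gene, 1.31 in replicate 1 and 1.33 in replicate 2 (1.32 ± 0.00884, SD, n = 2). Hoxa7, a gene of the middle of the cluster, is known for its role in the trunk. Its promoter peak is the region beside Hoxa9 described above. The height exceeded 21.5% of all promoter heights in replicate 1 and 23.3% in replicate 2, and the median promoter height of genes with a peak was 2.95 and 2.80. Significant bases, those with a false discovery rate below 0.05, numbered 461 and 396 at Hoxa7, against medians of 785 and 913.5 over all genes whose promoter was called in both libraries. So the most open Hox promoter was below the middle of all open promoters in both libraries.

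Hoxa4 was the other gene with a peak in both libraries, with a height of 0.478 in replicate 1 and 0.492 in replicate 2. The peaks did not overlap: chr6:52191941-52192000 in replicate 1 and chr6:52192010-52192119 in replicate 2 are separated by 9 bases. They lie upstream of the Hoxa4 start, within an intron of Hoxa3. Significant bases numbered 27 and 29. With them Hoxa4 and Hoxa7 were the 2 Hox genes with such bases in both libraries, against 60.5% of all genes. The promoter stretch is shown because it holds these neighbouring calls, which capitals mark. It is read in the direction of Hoxa4.
Hoxa4 promoter: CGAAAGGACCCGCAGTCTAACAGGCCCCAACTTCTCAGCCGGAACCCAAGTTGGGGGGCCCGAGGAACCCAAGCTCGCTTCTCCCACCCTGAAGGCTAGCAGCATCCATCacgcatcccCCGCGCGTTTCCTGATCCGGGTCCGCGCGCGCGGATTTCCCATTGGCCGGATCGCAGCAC
Asking for peaks that overlap by 50% of the shorter, or for the shorter peak list, left Hoxa7 as the 1 gene called in both libraries.

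Promoter peaks in a single library were low. In replicate 1 alone, Hoxb5 had a height of 0.418, Hoxc5 0.454 and Hoxc10 0.430. In replicate 2 alone, Hoxa10 had 0.592 and Hoxd11 0.242. Each of these 5 genes had significant bases in the library with the peak and 0 in the other: 37 at Hoxb5, 192 at Hoxc5, 88 at Hoxc10, 119 at Hoxa10 and 63 at Hoxd11. The long Hoxc5 transcript starts close to Hoxc10, so the bases counted for Hoxc5 include some also counted for Hoxc10. The remaining 32 genes had 0 significant promoter bases in both libraries, as had 35.1% of all protein-coding genes. Counted per library, 5 Hox promoters were called in replicate 1 against 61.1% of all genes, and 4 in replicate 2 against 62.4%.

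**Figure D3:**
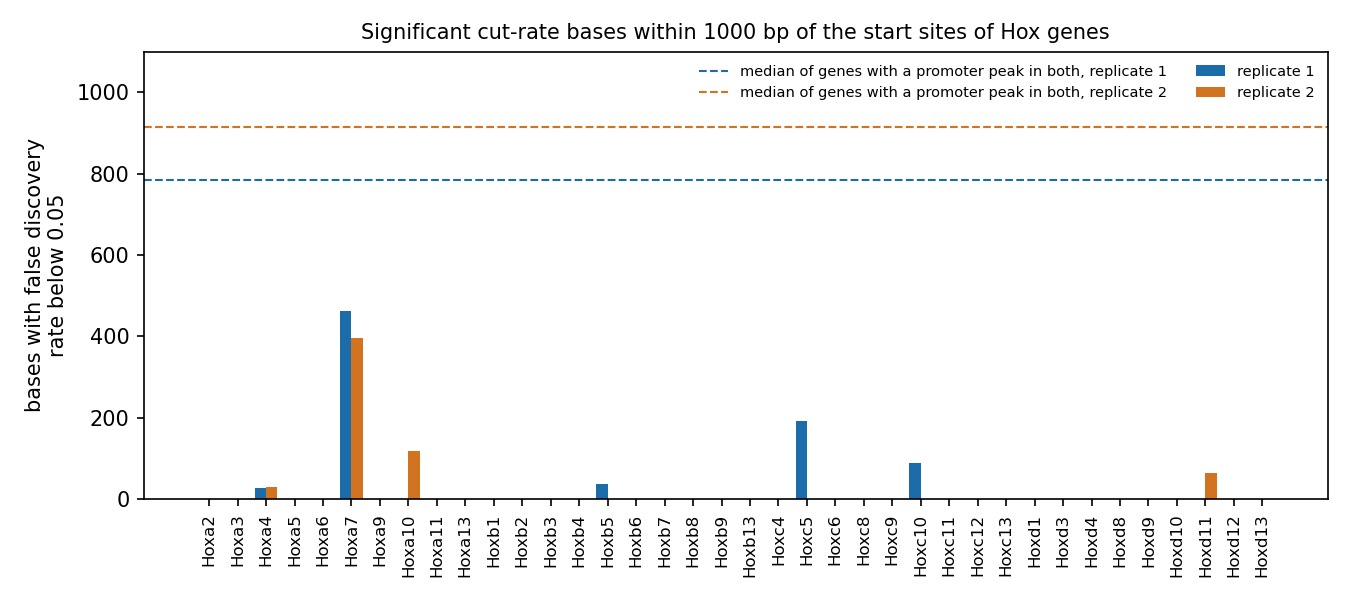
Number of bases with a false discovery rate below 0.05 within 1000 bp of the start sites of the Hox genes shown (bars from 0, 1 per library); dashed lines are the medians of all genes called at the promoter in both libraries, 785 in replicate 1 and 913.5 in replicate 2. Bars stand at 7 genes, and at Hoxa4 and Hoxa7 in both libraries.

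By cluster, at least 1 library had a promoter peak at 3 of 11 Hoxa genes, 1 of 10 Hoxb genes, 2 of 9 Hoxc genes and 1 of 9 Hoxd genes. By paralog group, the called genes were 1 of 4 in group 4, 2 of 3 in group 5, 1 of 2 in group 7, 2 of 3 in group 10 and 1 of 3 in group 11. Group 5 was called at Hoxb5 and Hoxc5, and group 10 at Hoxa10 and Hoxc10. No gene of groups 1, 2, 3, 6, 8, 9, 12 or 13 had a promoter peak in either library. This includes the genes whose expression reaches farthest forward in the hindbrain, such as Hoxb1, Hoxa2 and Hoxb2. For Hoxa2 the nearest peak was 27110 bp away in replicate 1 and 27179 bp in replicate 2, and for Hoxb1 it was 47543 and 41583 bp.

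Among the genes with no promoter peak, the closest in each cluster lay 1 to several kb from one. Hoxa3 had a peak 1218 bp from a start site in replicate 1 and 1351 bp in replicate 2, and Hoxa6 had one at 2939 and 2991 bp. Hoxb6 was 2175 and 2179 bp away and Hoxb8 2845 bp in both. Hoxc8 was 2907 and 2887 bp away, and Hoxc6 4081 and 10537 bp. Hoxd8 was 2095 and 2147 bp away, and Hoxd4 3912 and 3892 bp. For Hoxb8, Hoxc8 and Hoxd8 the nearest peak was the region beside group 9.

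In base composition, most Hox promoters resembled promoters of which the majority were open. Within 1000 bp of the gene start, GC content ranged from 45.1 to 67.3%, with a median of 55.5% against 51.2% for all genes, and 32 of 39 were above the median of all. The ratio of observed to expected CpG had a median of 0.591 against 0.474, and 31 of 39 were above the median of all. When all genes were divided into 10 bins of like size by promoter GC, the share called in both libraries was 85.3% in the highest bin, where 8 Hox genes fell and 1 of them, Hoxa4, was called. It was 81.9% in the next bin, with 6 Hox genes and 0 called. Averaged over the bins of the 39 members, the share was 76.7%.

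Over their whole length of 491.815 kb the clusters had about as many peaks per length as the autosomes on average. Replicate 1 had 15 peaks and replicate 2 had 13, or 0.305 and 0.264 per 10 kb against 0.2996 and 0.3046 for the autosomes. Shared regions numbered 0.183 per 10 kb against 0.213. Peaks in 1 library alone were 6 of 15 (40%) in replicate 1 and 4 of 13 (30.8%) in replicate 2, against 26.7% and 28.3% over the genome. The heights of these 10 peaks lay between 0.242 and 0.592, and none of the 10 held a significant base of the other library, which was also the case for 27 of 33 such peaks in the flanks. Peaks covered 0.476% of the cluster bases in replicate 1 and 0.430% in replicate 2.

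Over the 4 clusters together, footprints and significant bases per length were lower than the autosomal average. Footprints numbered 21 in replicate 1 and 29 in replicate 2 (25 on average), or 0.427 and 0.590 per 10 kb against 0.622 and 0.806. Significant bases numbered 2967 and 2489 (2728 on average), or 6.03 and 5.06 per kb against 8.80 and 9.77. Of these bases 73.7% and 80.9% fell inside peaks, a higher share than the 66.1% and 65.6% over the genome. Hoxa went the other way in footprints, with 0.855 and 1.04 per 10 kb, and in significant bases of replicate 1, with 9.32 per kb, while replicate 2 had 6.86.

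The clusters differ from an average stretch of the genome in their CpG and gene content. Against windows rich in CpG or in gene starts the number of shared regions was low. CpG density was 29.9 per kb in Hoxa, 20.9 in Hoxb, 21.5 in Hoxc and 28.0 in Hoxd, against a median of 7.78 over 23859 autosomal windows of 100 kb without the Hox windows. Only 36 of these windows (0.151%) reached the CpG density of Hoxb, and they held a median of 8.5 shared regions. None of the 36 had as few as the densest Hox cluster has per 100 kb, 2.85 in Hoxa, whereas 64.9% of all windows did. Among 127 windows in which at least 8 protein-coding genes start, the median was 8, and 12.6% had as few. This limit was not matched to each cluster. In Hoxb 10 genes start in 173.941 kb and in Hoxc 9 in 115.75 kb, fewer per 100 kb than in these windows. Across the 4 clusters the number of shared regions per 100 kb was 1.83.

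Some stretches of the clusters carried no peak in either library. How common stretches of such length are elsewhere was not counted. The autosomes had 0.2996 and 0.3046 peaks per 10 kb in replicates 1 and 2. Their median window of 100 kb held 1 shared region, so such stretches need not be particular to the clusters. In Hoxb 64.982 kb from upstream of Hoxb5 through Hoxb4, Hoxb3, Hoxb2 and Hoxb1 were free of peaks, as were 40.76 kb at Hoxb13. In Hoxc the longest such stretch was 45.458 kb, over Hoxc13, Hoxc12 and Hoxc11. In Hoxa it was 36.351 kb, with Hoxa2, Hoxa4 and part of Hoxa3, and in Hoxd it was 33.86 kb, over parts of Hoxd3 and Hoxd4 and a short piece beyond Hoxd3. The group 1 end of Hoxb and the group 13 ends of Hoxb and Hoxc thus lay in peak-free DNA.

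**Figure D4:**
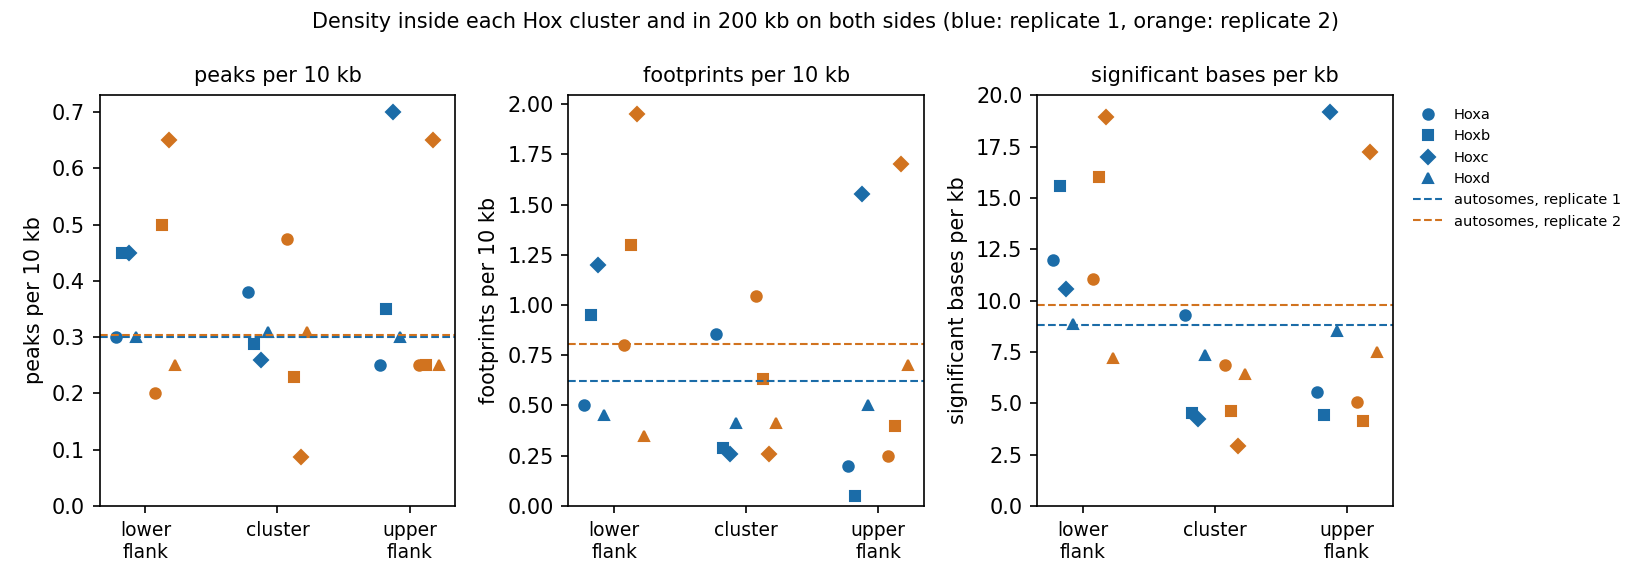
Peaks per 10 kb, footprints per 10 kb and significant bases per kb (vertical axes) in the lower flank, the cluster and the upper flank of each Hox cluster, by library; marks are the 4 clusters, and dashed lines are the autosomal averages. Both Hoxc flanks are above the Hoxc cluster in all 3 measures, while the upper Hoxb flank is as low as the Hoxb cluster in significant bases.

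The flanks are the 200 kb below and above each cluster in chromosome coordinates. Over these 1600 kb there were 44 shared regions, 0.275 per 10 kb, and 17 of them were above the genome's median height. The clusters had 0.183 per 10 kb. This order did not hold in every cluster: Hoxa had 0.285 per 10 kb against 0.2 in each of its flanks, and Hoxd 0.207 against 0.2 in each. Hoxb had 0.172 against 0.35 below and 0.1 above, and Hoxc 0.0864 against 0.35 and 0.6. Significant bases numbered 10.6 per kb in replicate 1 and 10.9 in replicate 2. The flanks differed among themselves: the upper Hoxc flank had 12 shared regions, and the upper Hoxb flank had 2, fewer per length than the Hoxb cluster. With flanks of 100 kb the density was 0.200 per 10 kb, and with 500 kb it was 0.370, so the pooled difference from the clusters was smaller close to them.

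The tallest flank regions were promoters of neighbouring genes outside the Hox family. Of 15 protein-coding genes that start in the flanks, 9 were called at the promoter in both libraries, a share close to the 59.7% of all genes, and 0 in 1 library alone. The tallest were Atp5g1, a subunit of the mitochondrial ATP synthase, with 14.5 in replicate 1 and 17.3 in replicate 2, and Skap2, a signalling adaptor, with 8.32 and 8.93. The others were Calcoco1, Ube2z, Smug1, Snf8, Lnpk, Mtx2 and Ttll6. Evx1 and Evx2, the homeobox genes next to Hoxa13 and Hoxd13, had no promoter peak and 0 significant promoter bases in both libraries. The same held for Igf2bp1, Gip, Calcoco2 and Skap1.

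Around Hoxa, the lower flank held the Skap2 promoter, then 1.03 and 0.934 at chr6:52064181-52064580, and 0.478 and 0.367 in a Skap2 intron. The tallest peak of 1 library alone was 0.681 in replicate 1, 255 bp from the Skap2 start. All its 320 bases were nevertheless significant in replicate 2, without a peak called there. In the upper flank the 3 tallest shared regions had 0.442 and 0.984 at 7238 bp from Evx1, then 0.884 and 0.450, and 0.573 and 0.5004. The first of these differed between the libraries by more than its lower height. The tallest peak of 1 library alone there was 0.645 in replicate 1.

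Around Hoxb, the lower flank held Atp5g1, Ube2z with 5.28 and 5.30 and Snf8 with 3.45 and 3.77. Its tallest peak of 1 library was 0.717 in replicate 2, at Atp5g1, and 92 of its 146 bases were significant in replicate 1. The upper flank held only 0.502 and 0.726 in a Skap1 intron and 0.478 and 0.367 between genes, 47440 bp from Hoxb1. The tallest peak of a single library was 0.684 in replicate 2, with 28 of its 184 bases significant in replicate 1. Thus the Hoxb1 side of the cluster was low within the cluster and beyond it.

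Around Hoxc, the lower flank held Calcoco1 with 6.35 and 6.05, a region between genes with 2.84 and 2.49 that matched the CTCF core exactly, and another with 2.78 and 2.17. Its tallest peak of 1 library was 1.43 in replicate 2. The upper flank held Smug1, a DNA repair glycosylase, with 4.48 and 4.13, then Cbx5, which encodes a heterochromatin protein, with 3.32 and 2.47. A second Smug1 region had 2.21 and 2.52, and the tallest peak of 1 library was 0.740 in replicate 1. All of these shared regions were taller than the region inside Hoxc.

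Around Hoxd, the lower flank held Lnpk with 3.24 and 3.28, a region 4131 bp from Evx2 with 0.920 and 0.934, and a second Lnpk region with 0.621 and 0.459. Its tallest peak of 1 library was 0.575 in replicate 2, 2333 bp from Evx2. The upper flank held Mtx2 with 0.955 and 1.08, then 1.33 and 0.667 at 95460 bp from Mtx2, with an exact CTCF core, and 1.11 and 0.692 at 26581 bp from Hoxd1. The tallest peak of 1 library alone was 0.358 in replicate 1. Heights in the upper Hoxd flank were thus close to those inside the cluster.

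Noncoding genes in the clusters were mostly without a peak as well. Of 19 long noncoding genes, 2 had a peak within 1000 bp of a start in both libraries, 9530018H14Rik beside Hoxa13 and Hoxd3os1, against 22.4% of all long noncoding genes. Haglr had one in replicate 1 alone, with 0.466. Hotair, transcribed from the Hoxc cluster, and Hotairm1, transcribed from the Hoxa cluster, had none. The 6 microRNA genes of the clusters, Mir10a, Mir10b, Mir196a-1, Mir196a-2, Mir196b and Mir615, overlapped no peak. The nearest was 1153 bp from Mir615, in replicate 1. Of 3 further protein-coding genes annotated inside the clusters, Gm28308, 5730596B20Rik and Gm28230, 0 had a promoter peak.

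Motifs were searched on both strands of the 9 shared regions, and each is given with the share of all shared regions in windows of 300 bp. For the tall regions the share is instead that of all regions above the median height, searched at their own width. The CTCF core had 0 exact matches in the 9 regions, against 6.10% of all windows. Among the 3 tall regions it also had 0, against 7.07% of all regions above the median height. With up to 1 mismatch it was found in 3 of the 9 (18.4% of windows) and in 2 of the 3 tall ones (20.3%). With up to 2 mismatches it was found in 8 of 9 (46.5%) and in all 3 tall ones (50.1%). The GC box GGGCGG was found in 3 of 9 regions (29.2%), and TGACAG, bound by the MEIS cofactors, in 2 windows (21.9%). No match was found for the homeodomain site TAATTA (4.35%), for the PBX-HOX site TGATNNAT (7.06%) or for the AP-1 site TGANTCA (10.8%). Over the whole clusters there were 195 PBX-HOX matches, with 0 in a peak of replicate 1 and 1 in a peak of replicate 2. The DR5 element of retinoic acid receptors, through which retinoic acid acts on Hox genes in the hindbrain, had 4 matches, of which 0 were in a peak. Peaks covered only 0.476% of the cluster bases in replicate 1 and 0.430% in replicate 2. At that coverage, few or no PBX-HOX or DR5 matches in peaks is no sign that these sites were closed. The CTCF core with up to 1 mismatch had 34 matches, of which 3 and 4 were in peaks of replicates 1 and 2.

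The genes that act with or upon Hox genes contrasted with the Hox promoters. Of 26 genes of Polycomb complexes, all 26 were called at the promoter in both libraries, against 59.7% of all genes. The tallest were Cbx8, with 12.1 in replicate 1 and 13.0 in replicate 2, and Jarid2, with 11.99 and 11.2. The lowest were Phc1, with 1.25 and 1.24, and Bmi1, with 1.35 and 1.19. Their median mean height was 3.61 against 3.00 for all genes called in both. Of 9 trithorax and demethylase genes, which counter Polycomb, 8 were called in both libraries, led by Kdm6a with 10.8 and 12.4 and Kmt2b with 6.31 and 8.12. The lowest were Dpy30, with 1.96 and 2.13, and Rbbp5, with 1.89 and 2.44. Kdm6b was called in replicate 2 alone, with 1.64.

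The cofactors that bind DNA together with Hox proteins, the PBX, MEIS and PKNOX families, were called in both libraries at 8 of 9 genes. The tallest was Pknox1, with 12.9 and 12.02. The lowest were Meis3 with 1.22 and 1.38 and Meis1 with 1.62 and 2.08. Pbx2 was called in replicate 1 alone, with 1.60. Of 13 homeobox genes of the forebrain, 11 were called in both, led by Pou3f3 with 9.24 and 9.68 and Pou3f2 with 3.94 and 4.22. The lowest were Otx1, with 0.824 and 0.842, and Emx1, with 1.04 and 0.967. Six3 was called in replicate 1 alone, and Otx2, a gene of the early forebrain and midbrain, in neither.

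Genes upstream of Hox expression were divided. Of 14, 5 were called in both libraries, among them Rarg with 3.09 and 2.69, Egr2 with 2.72 and 2.84, Rara with 1.49 and 1.56, and Rarb with 1.28 in both. Egr2 is a regulator of hindbrain segments, and Rarg, Rara and Rarb are retinoic acid receptors. Cyp26b1 and Aldh1a2, which degrade and make retinoic acid, were called in replicate 2 alone, with 0.5004 and 0.434. The remaining 7, among them Cdx1 and Cdx2, had none. Of 14 ParaHox and other clustered homeobox genes, 4 were called in both: Dlx6 with 2.36 and 1.92, Dlx5 with 1.52 and 1.63, Dlx2 with 1.22 and 1.46, and Gsx1 with 0.920 and 0.842. Evx1, Evx2 and Pdx1 were among the 8 with none.

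**Figure D5:**
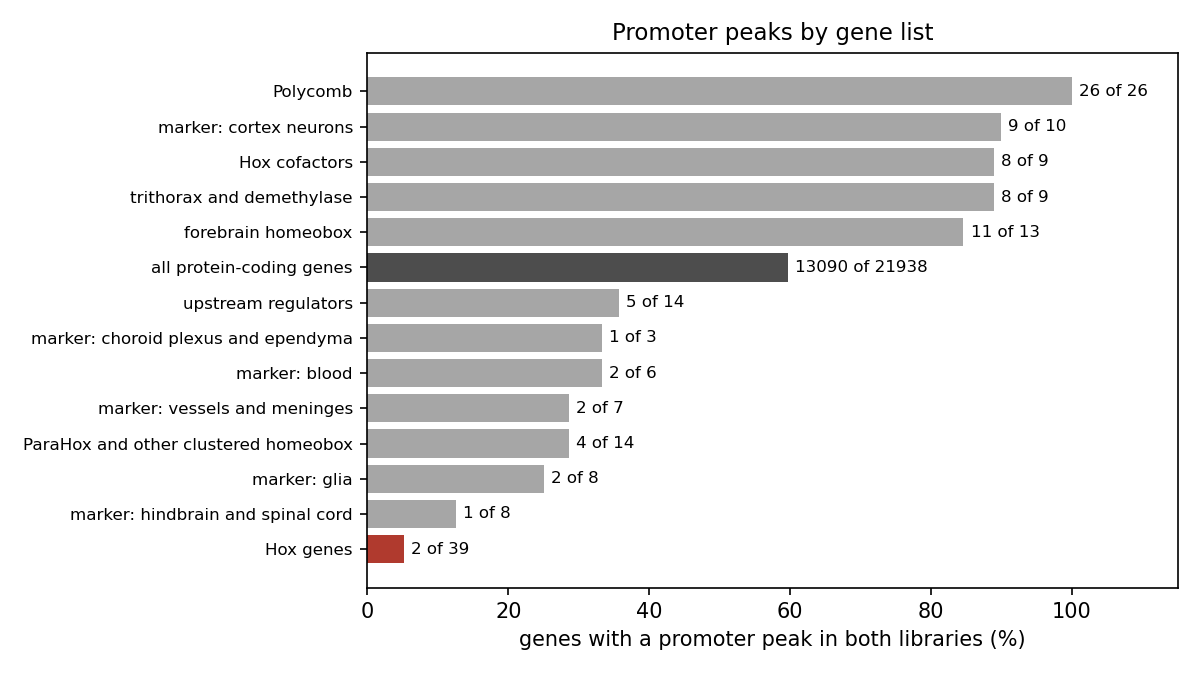
Share of promoters called in both libraries (horizontal axis, %) for each gene list, with the count beside each bar; the dark bar is all protein-coding genes and the red bar the Hox genes. The Hox genes, at 2 of 39, have the lowest share of the lists shown, and the Polycomb genes, at 26 of 26, the highest.

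The markers of the labelled tissue were open. Of 10 genes of cortical neurons, 9 were called in both libraries, led by Syt1, a synaptic vesicle protein, with 4.82 and 4.39. The lowest were Gad2, with 0.812 and 1.13, and Emx1. Slc17a7 was called in replicate 2 alone. Of 8 genes listed as markers of the hindbrain and spinal cord, 1 was called in both, against 59.7% of all genes. It was Isl1, with 1.11 and 0.709. Tlx3 was called in replicate 2 alone with 0.709, and En1 was among the 6 with none. Promoters of other cell types were called in both at 2 of 8 glial genes, 2 of 7 genes of vessels and meninges, 2 of 6 blood genes and 1 of 3 genes of choroid plexus and ependyma. The named examples were Gfap with 1.04 and 0.909 and Cx3cr1 with 0.693 and 0.801 for glia, Col1a1 with 2.03 and 1.87 and Foxc1 with 1.04 and 1.29 for vessels and meninges, Spi1 with 0.884 and 1.20 and Tal1 with 0.669 and 0.776 for blood, and Foxj1 with 7.13 and 6.56 for ependyma. Mog, Dcn, Cd3e and Folr1 had none. In whole tissue, a low peak in few cells and a weakly open site in many cannot be told apart, and the part of any cell type in the Hox peaks was not tested.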

How the data were processed

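DNase-seq of 2 libraries of frontal cortex, grouped by the labels, was used as deposited. Per the deposited file descriptions, the authors made peaks, footprints and cut rates for each library separately in assembly mm10. Peak heights are the authors' deposited signal values, on a scale that was not stated. For cut rates the authors deposited a false discovery rate, handled here like a p-value, wherever it was below 0.05, and deposited footprints carry a constant p-value of 0.01. Which programs aligned reads and called peaks is not given in the sources used here. Depth is unknown, so no counting interval could be given, and reads of the CAST allele may map less well, which was not tested. The longer peak list was used. Peaks overlapping by 1 bp were joined into 53659 shared regions. Genes and 93513 start sites came from GENCODE M21, and sequence from GRCm38.p6, the same coordinates as mm10. CTCF sites were sought by the 12-letter core, and likeness by ungapped comparison of 30 bases. Python 3.11.15, pandas 2.3.3 and numpy 2.4.6 were used, and searches were tested on simulated data. Windows of 100 kb with fewer than 90% known bases were left out. Named were all members called in 1 or both libraries, the 2 nearest to a peak per cluster, the 3 tallest shared regions per cluster and flank, and the 2 tallest and 2 lowest genes of each list, except a few genes that are not reported here. The members and lists were chosen with earlier results of these data known.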

Additional observations from a re-analysis of the deposited data

How the results depend on the processing

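The 2 Hox genes called at the promoter in both libraries became 1 with the shorter peak list or with 50% overlap, which leaves Hoxa7. They became 4 with promoters of 2000 bp and 15 with 5000 bp, and 4 to 5 when a single library was used. The 9 shared regions inside the clusters became 13 to 15 peaks with a single library, which then counts peaks not shared. The 44 shared regions in the flanks became 20 with the shorter list, 16 with flanks of 100 kb and 148 with 500 kb. Significant bases inside the clusters, 2728 on average, fell to 1478 at a false discovery rate below 0.001. The 0 tall regions with a CTCF core became 2 with up to 1 mismatch and 3 with up to 2, settings chosen after seeing the data. No paired analysis was possible because both libraries belong to 1 group. The other alternatives, for footprints among them, stayed within 1.5 times. Depth is unknown, so an absent peak is not evidence of closed DNA, and with 2 libraries the SD is imprecise.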
